A study of Mus musculus with 16 samples.

Results

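The Fc gamma receptors of the mouse are the subject here: the activating receptors Fcgr1, Fcgr3 and Fcgr4, their shared signalling chain Fcer1g, and the inhibitory receptor Fcgr2b. The members were chosen by symbol, as the rows of these 5 genes in all 8 deposited matrices, because an agonistic antibody such as anti-CD40 can act through them. All 5 were found, of 32285 genes, and none was among the genes used to cluster the cells. Fc gamma receptors bind the constant part of IgG. The activating receptors signal through the ITAM motifs of the Fc receptor gamma chain, which recruit the kinase Syk and start phagocytosis, the oxidative burst and cytokine release. Fcgr2b carries an ITIM motif that recruits the phosphatase Inpp5d and dampens that signal, and its binding of antibody on a neighbouring cell is also known to cross-link CD40 when the antibody is agonistic. Macrophages and monocytes carry both kinds, B cells are known for Fcgr2b alone, and NK cells for Fcgr3 and Fcer1g.

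The cells came from B16 melanomas grown under the skin of C57BL/6J mice. Each mouse had received 1000000 Bro4.1 B16 cells, either control cells or cells lacking B2m, the light chain of MHC class I. The hosts were wild type in the design text, so "B2m-null" describes the implanted tumour cells, although the sample labels attach the genotype to the sample as a whole. Mice were injected into the peritoneum with 100 µg of anti-CD40 or of a rat IgG2a isotype antibody on days 6, 9 and 12 and tumours were taken on day 14, so every group had received antibody. CD45-positive cells were enriched on beads, marked with a hashtag antibody for each mouse, pooled within a group and sequenced by the 10x Genomics 3′ method. Control tumours under isotype came from 5 mice (control isotype) and those under anti-CD40 from 2 (control CD40). B2m-null tumours under isotype came from 5 (B2m-null isotype) and those under anti-CD40 from 4 (B2m-null CD40). The sources used here state neither the age and sex of the mice nor the clone of the anti-CD40 antibody. All groups except control CD40 came from 2 pools each, called pool 1 and pool 2. The control CD40 mice came from 1 pool that was run on 2 lanes as technical replicates, so pool and group cannot be told apart there.

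The 8 lanes held 541.1 M UMIs (unique molecular identifiers, each counting 1 captured mRNA molecule), 45.99 M to 99.26 M in a lane, and 78682 cells from 16 mice were assigned to a mouse and kept. Hashtags assigned 56.3% to 92.3% of the barcodes in a lane, and pairs of lanes shared 41 to 92 cell barcodes by sequence. As a check of the tumour genotype, B2m in the few carried-over melanoma-like cells stood at 359 ± 34 counts per 1000000 UMIs (CPM, SD, n = 4 mice) in B2m-null isotype, 1537 ± 357 (n = 5) in control isotype and 2101 ± 212 (n = 2) in control CD40. B2m-null CD40 could not be checked this way, since its 38 melanoma-like cells left no mouse with the 20 cells required. In host macrophage-like cells it stood at 3176 to 5604 CPM on average in the 4 groups. Cells were clustered and clusters named from marker genes as macrophage-like, monocyte-like, neutrophil-like, cDC1-like, cDC2-like, mature DC-like, pDC-like, B-like and NK-like, written below without "-like". Under isotype, 8 of 8 neutrophil, mature DC, pDC and NK markers and 9 of 9 B markers were highest in their own class, as were 9 of 10 macrophage, 7 of 8 cDC1 and 6 of 8 cDC2 markers. Of the monocyte markers 5 of 9 were, so the split of monocytes from macrophages rests on weaker markers than the other classes. The same lists had named the clusters, so these counts are no independent check of the names. Changes between groups below are log2 changes from edgeR fitted to UMI counts summed per mouse and class, with p adjusted over all genes tested in that class, and a gene is called changed at an adjusted p under 0.05. Levels are given as CPM within a class and mouse.

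The receptor genes sit in 2 places in the genome (GENCODE vM21 annotation of GRCm38, mm10). Fcgr2b (ENSMUSG00000026656, chr1:170958617-170976547, minus strand), Fcgr4 (ENSMUSG00000059089, chr1:171018920-171029761, plus strand), Fcgr3 (ENSMUSG00000059498, chr1:171051174-171064935, minus strand) and Fcer1g (ENSMUSG00000058715, chr1:171229572-171234365, minus strand) lie within 275.7 kb of chromosome 1. Fcgr1 (ENSMUSG00000015947, chr3:96282909-96293969, minus strand) lies alone on chromosome 3. Fcgr2b overlaps the antisense gene Gm38204, Fcgr4 the small nuclear RNA gene Gm26110 and Fcgr3 the microRNA gene Mir6546, and the sources do not state whether the counting used strand. Fcgr3 and Fcgr2b share an identical stretch of 129 bases in their transcripts. In the last 500 bases of the transcripts, where 3′ tags fall, no pair of members shared more than 13 bases in a row.

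Fcgr1 and Fcgr4 are the members called lower in macrophages, monocytes and cDC2 alike in B2m-null tumours under isotype (below). The Fcgr4 level in cDC2 is not read as expression. The promoter sequences of both genes (RefSeq, GRCm38.p6, 250 bases before to 50 after the annotated start, read in the direction of transcription) are shown because of these calls. Capitals mark matches to the letters TTCNNNGAA (the gamma-interferon-activated site), GAAA followed by any 2 bases and a second GAAA (the core of the interferon-stimulated response element) and GAGGAAGT (a PU.1-type site), searched on both strands.
Fcgr1, chr3:96293920-96294219, minus strand: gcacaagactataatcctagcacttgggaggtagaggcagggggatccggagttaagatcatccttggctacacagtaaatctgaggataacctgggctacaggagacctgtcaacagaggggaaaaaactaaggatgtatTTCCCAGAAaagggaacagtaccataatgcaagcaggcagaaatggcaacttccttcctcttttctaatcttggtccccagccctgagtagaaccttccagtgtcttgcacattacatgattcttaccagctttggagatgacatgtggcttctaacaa
Fcgr4, chr1:171018676-171018975, plus strand: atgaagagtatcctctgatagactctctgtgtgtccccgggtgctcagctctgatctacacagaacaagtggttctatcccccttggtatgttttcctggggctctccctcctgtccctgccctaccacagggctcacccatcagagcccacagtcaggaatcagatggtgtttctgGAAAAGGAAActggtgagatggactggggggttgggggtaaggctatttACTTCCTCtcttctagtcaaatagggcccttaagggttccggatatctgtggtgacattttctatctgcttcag
The Fcgr1 window held 1 match to the gamma-interferon-activated site, TTCCCAGAA, beginning 109 bases before the start. The Fcgr4 window held 1 match to the interferon-stimulated response letters, GAAAAGGAAA, beginning 73 bases before the start, and 1 PU.1-type match read on the other strand as ACTTCCTC, 24 bases before it. The matches do not overlap each other. Of 32851 mouse promoter windows of this length, 8.30% held the first motif, 3.44% the second and 3.20% the third. The windows of Fcgr2b, Fcgr3 and Fcer1g held none of these letters. A match describes the sequence and shows neither binding nor control.

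The order of levels across the 9 classes was taken over the 10 isotype mice of both tumour genotypes, and neighbours in each order were compared within mice by two-sided exact permutation tests, adjusted over the 40 pairs. All 5 genes were highest in macrophages or monocytes, and neutrophils came next for each of them. Of the 40 neighbouring pairs, 5 passed an adjusted p of 0.05. Pairs with B cells had 5 mice, where the exact p cannot fall below 0.0625, so they could not pass. Pairs with neutrophils had 7 mice and, with 7 of 7 in 1 direction, reached an exact p of 0.0156, adjusted 0.069. For such pairs a failure to pass says little about the levels. Fcgr1, the high-affinity IgG receptor, stood at 432 ± 113 CPM in monocytes (lowest 271, median 433.1, highest 638) and at 288 ± 75 in macrophages (lowest 195, median 298.8, highest 416). Monocytes exceeded macrophages in 10 of 10 mice (log2 difference 0.58, exact p = 0.0020, adjusted p = 0.026). Neutrophils followed at 193 CPM, cDC2 at 132, pDC at 106, mature DC at 91.3, cDC1 at 66.7, B cells at 20.2 and NK cells at 14.5, and none of these neighbouring pairs passed. Fcgr3, the low-affinity receptor best known on NK cells and phagocytes, lay at 361 CPM in monocytes, 361 in macrophages and 350 in neutrophils. It then dropped to 150 in pDC, 123 in cDC2, 88.0 in mature DC, 79.8 in cDC1, 43.6 in NK cells and 11.9 in B cells. No neighbouring pair passed the threshold, although neutrophils exceeded pDC in 7 of 7 mice (log2 difference 1.32). Fcgr4, a receptor of intermediate affinity for IgG2 found on myeloid cells, lay at 286 CPM in macrophages, 240 in monocytes and 235 in neutrophils and at 93.0 or below elsewhere. Again no pair passed the threshold, although neutrophils exceeded pDC in 7 of 7 mice (log2 difference 1.78).

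The gamma chain Fcer1g stood at 3296 ± 500 CPM in macrophages, 3290 ± 393 in monocytes, 2559 in neutrophils, 2188 in cDC2 and 1960 in pDC. NK cells held 1520 CPM, below pDC in 9 of 10 mice (log2 difference 0.37, adjusted p = 0.047 by the exact test), then mature DC 1126, cDC1 943 and B cells 328. Fcgr2b, the inhibitory receptor, had the most steps that passed. It stood at 766 ± 99 CPM in monocytes and 525 ± 97 in macrophages, higher in monocytes in 10 of 10 mice (log2 difference 0.56, exact p = 0.0020, adjusted p = 0.026), then at 425 in neutrophils. cDC2, at 332 CPM, exceeded pDC, at 229, in 9 of 10 mice (log2 difference 0.59, adjusted p = 0.039 by the exact test). cDC1, at 200 CPM, exceeded mature DC, at 149, in 10 of 10 (log2 difference 0.44, adjusted p = 0.026 by the exact test). B cells followed at 127 ± 87 CPM over 5 mice and NK cells at 37.4 ± 19.8. With any of the 4 isotype pools left out no pair passed. Fewer mice then remain for the exact test, and the part of this in the loss was not tested. A gate on marker genes in place of clusters gave 13 pairs and a finer clustering 8, but in each of these settings 11 of the 40 neighbours stood in the opposite order by the within-mouse log2 difference, against 3 with the clusters and cells used. With the same clusters, 10 of 40 did so once the cells with the top 5% of doublet scores were removed and 8 of 40 once cells with transcripts of another lineage were removed (6 and 5 pairs passed). The order of close neighbours therefore changed both with how the classes were drawn and with which cells were kept.

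**Figure D1:**
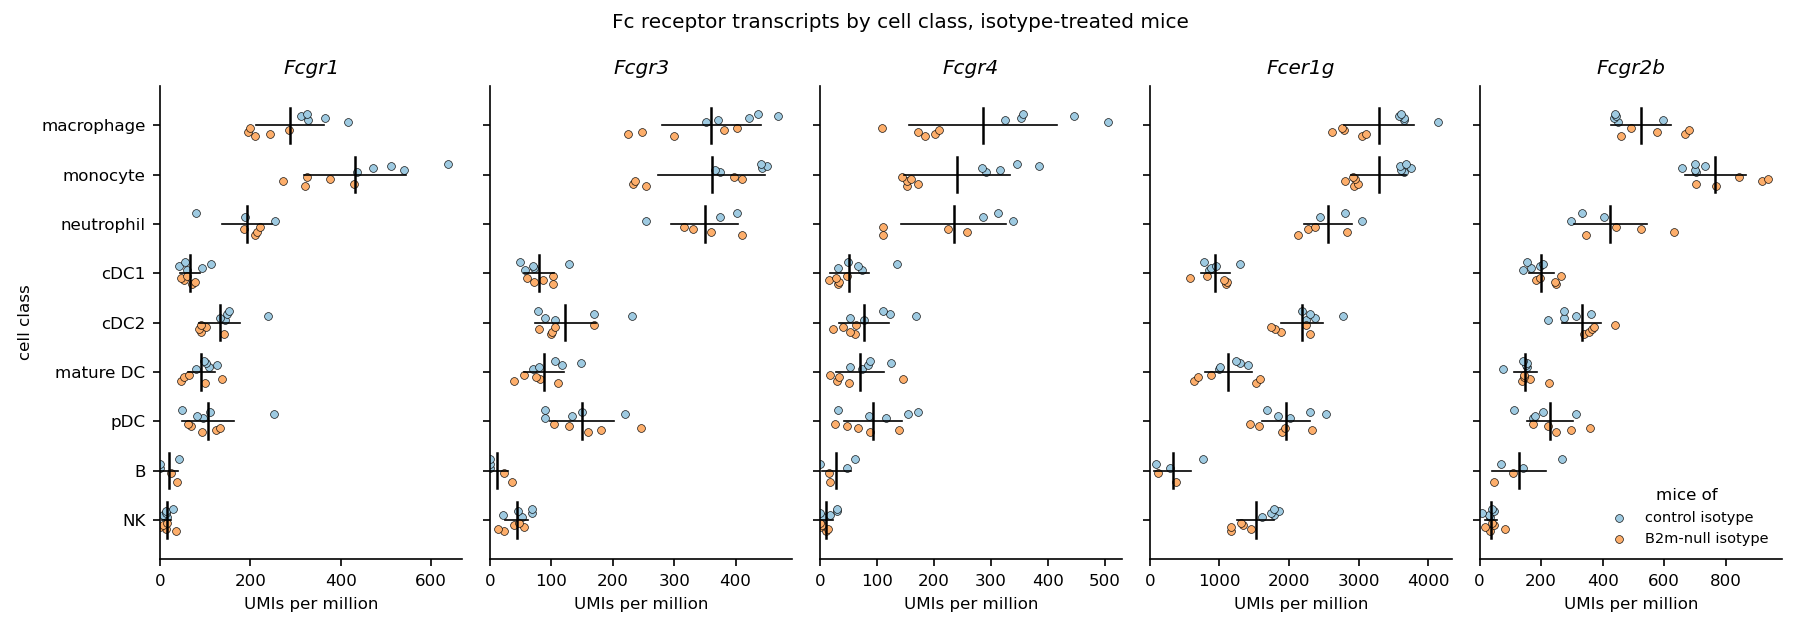
Level of each Fc receptor gene (UMIs per 1000000, that is CPM, linear axis) in 9 cell classes of isotype-treated mice, with 1 point per mouse, coloured by tumour genotype, a vertical bar at the mean and a horizontal line of 1 SD on each side. Macrophages, monocytes and neutrophils have the highest means for all 5 genes, and Fcer1g in NK cells (mean 1520 CPM) lies among the dendritic classes.

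Low levels have to be read against free RNA, which was gauged in cells that should lack these receptors. Over the isotype mice, carried-over fibroblast-like cells held Fcer1g at 764 ± 426 CPM (SD, n = 6 mice, highest 1257) and melanoma-like cells at 357 ± 135 (n = 9). Fcgr1, Fcgr3, Fcgr4 and Fcgr2b stood at 51.0, 57.5, 55.0 and 94.98 CPM in the fibroblast-like cells, with highest values of 78.9, 99.6, 114 and 147. B cells lay below the fibroblast-like mean for each gene but Fcgr2b, and cDC1 lay below it for Fcgr4. NK cells lay below it for each gene but Fcer1g, with Fcgr3 at 43.6 CPM in NK cells. The highest fibroblast-like value also exceeded the cDC1 mean for Fcgr1, Fcgr3 and Fcer1g, the mature DC mean for Fcgr3 and Fcer1g, the mean of each dendritic class for Fcgr4 and the B cell mean for Fcgr2b. By this measure, the places of these classes in the orders above are not read as expression for these genes. For Fcer1g the measures differ, since CD4 T cells of the isotype mice held it at 100 CPM. After thinning to 1000 UMIs, 41.3% of cDC1 and 45.4% of mature DC in control isotype held Fcer1g, against 9.85% of CD4 T cells. Free RNA in NK cells was also gauged by macrophage transcripts, and for Fcgr3 the measures differ. In control isotype, NK cells held Fcgr3 at 12.5% of the macrophage level, against 2.99% to 5.45% for 5 macrophage transcripts (C1qa, C1qb, C1qc, Lyz2 and Apoe) in the same cells. Fcer1g in NK cells was at 47.1% of the macrophage level. Fcgr1, Fcgr4 and Fcgr2b in NK cells were at 4.31%, 4.29% and 6.46%, close to those transcripts. After every cell was thinned to 1000 UMIs (505 of 1143 NK cells and 146 of 278 CD4 T cells were too shallow and left out), 5.02% of NK cells and 0.758% of CD4 T cells held Fcgr3, and 81.2% and 9.85% held Fcer1g. Before thinning the shares were 6.74% and 1.44% for Fcgr3 and 83.9% and 11.9% for Fcer1g, at median depths of 1066 and 977 UMIs. Fcgr2b was found in 2.82% of thinned NK cells and 2.27% of thinned CD4 T cells (4.29% and 3.24% unthinned), so its level in NK cells is read as background. B cells of control isotype held Fcgr2b at 33.9% of the macrophage level, against 6.98% in CD4 T cells, and Fcgr3 in 0 of 105 cells. Their Fcgr2b share was 16.2% (14.3% of the 42 cells left after thinning) at a median depth of 836 UMIs.

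Across the 4 groups the receptors did not move as a block. In each class the 4 groups enter 1 fit, and the comparisons share their isotype groups, so their values are set side by side without an overlap. Under isotype, B2m-null against control tumours, 8 of the 40 gene-by-class tests that could be made were called, all of them lower (3.26% of all genes tested in the 9 classes were called, 1.90% lower). These were Fcgr1 and Fcgr4 in macrophages, monocytes and cDC2, and Fcer1g in macrophages and monocytes. Anti-CD40 in control tumours gave 8 calls of 30, all lower (9.39% of all genes, 4.07% lower): Fcgr1 and Fcgr2b in macrophages, monocytes and cDC2, Fcer1g in cDC2 and Fcgr2b in NK cells. Anti-CD40 in B2m-null tumours gave 9 of 30, 7 higher and 2 lower (18.4% of all genes, 9.64% higher and 8.74% lower). The higher ones were Fcgr4 and Fcer1g in macrophages and monocytes, Fcgr1 in macrophages, Fcgr3 in monocytes and Fcer1g in NK cells, and the lower ones were Fcgr2b in monocytes and NK cells.

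Between the tumour genotypes under anti-CD40, 3 of 25 tests were called (6.92% of all genes): Fcgr1 in macrophages and Fcgr2b in cDC2 were higher in B2m-null tumours and Fcgr4 in monocytes was lower. The test of the difference between the CD40 effects of the 2 tumour genotypes called 8 of 25, all in the direction of a more positive effect in B2m-null tumours (10.5% of all genes, 5.48% in that direction). No member was called in neutrophils, cDC1, mature DC, pDC or B cells. Many tests there were missing or rested on few cells, but under isotype cDC1 and mature DC had 5 mice in each genotype. Control and B2m-null isotype held 746 and 647 cDC1 and 859 and 872 mature DC, beside 637 and 702 cDC2. Without adjustment, p was under 0.05 in 18, 16, 14, 13 and 15 tests of these 5 comparisons in the order given. With the pool in place of the mouse as the unit, cells not assigned to a mouse were taken in as well. Then 5 calls were made between genotypes under isotype and 6 with anti-CD40 in B2m-null tumours. Control CD40 was 1 unit there, so no count is given for its comparisons. With anti-CD40 in B2m-null tumours, the calls lost under that setting included Fcer1g in NK cells and macrophages. Between genotypes under isotype they included Fcer1g in macrophages and monocytes and Fcgr1 in monocytes and cDC2. Except for NK cells, these losses are not repeated below. Scaling matters for the CD40 comparisons: by library size alone, the median of all macrophage genes moved by -0.20 in B2m-null and by -0.14 in control tumours against the TMM scaling used, and the log2 changes are relative to the TMM median. For this reason they can exceed the ratio of the CPM levels printed beside them.

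**Figure D2:**
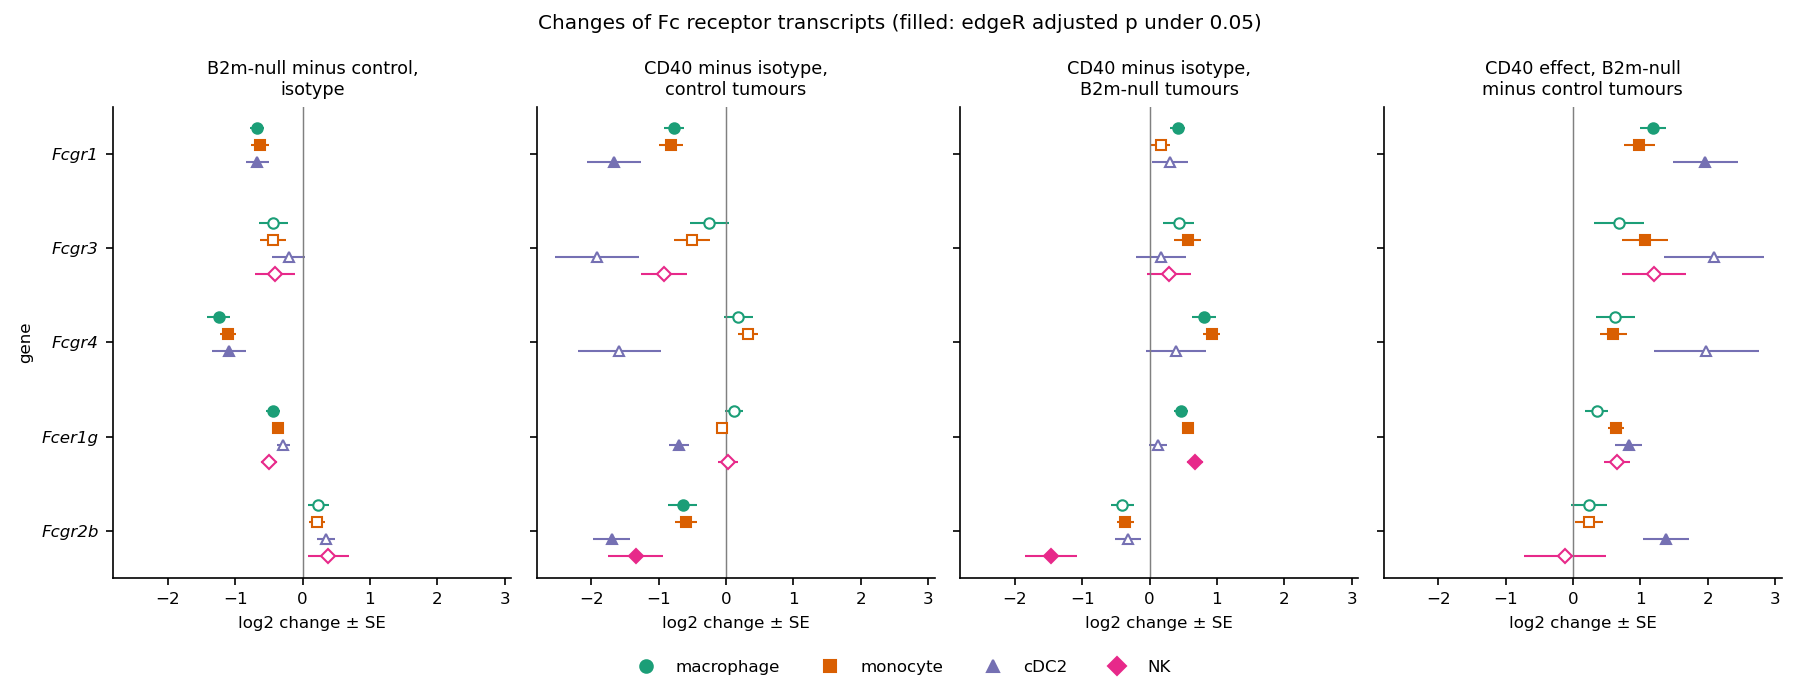
Log2 change of each gene with its standard error, in macrophages, monocytes, cDC2 and NK cells where tested, for 4 comparisons (the genotypes under anti-CD40 are not drawn), with filled points for an edgeR adjusted p under 0.05. Fcgr4 and Fcgr1 lie left of 0 in B2m-null against control tumours under isotype, and Fcgr1 in macrophages lies at -0.77 with anti-CD40 in control and at 0.42 in B2m-null tumours.

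Fcgr1 fell in control tumours under anti-CD40 and was also lower in B2m-null tumours under isotype. In macrophages of control isotype the 5 mice stood at 416, 328, 365, 313 and 324 CPM, and the 2 control CD40 mice at 186.4 and 185.7. B2m-null isotype mice stood at 210.3, 244, 195, 285 and 199 CPM and B2m-null CD40 mice at 255, 275, 255 and 266. Control isotype lay above every mouse of the other groups, and the 2 control CD40 mice lay below all others. Anti-CD40 lowered Fcgr1 in control tumours by a log2 change of -0.77 (SE 0.15, edgeR adjusted p = 0.0016), where 22.8% of macrophage genes were called. B2m-null against control under isotype gave -0.68 (SE 0.11, adjusted p = 0.0024, 9.78% of genes called). In B2m-null tumours the change with anti-CD40 was 0.42 (SE 0.12, adjusted p = 0.011, 34.4% called) with overlapping CPM, and the difference of the 2 CD40 effects was 1.19 (SE 0.19, adjusted p = 0.0014). Under anti-CD40 Fcgr1 was higher in B2m-null than in control tumours (0.51, SE 0.15, adjusted p = 0.040, 10.6% called), and 17.6% of genes were called for the difference of effects.

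The fall with anti-CD40 in control tumours and the difference of effects held under all 23 alternatives that could be fitted. Among these, the fits without a control CD40 mouse and with the pool as unit left 1 unit in that group. The genotype call under isotype was lost without pool 1 of B2m-null isotype (-0.54, adjusted p = 0.073) or of control isotype (-0.54, adjusted p = 0.096). The rise in B2m-null tumours was lost without pool 2 of B2m-null CD40 (0.39, adjusted p = 0.087), without pool 1 of B2m-null isotype (0.30, adjusted p = 0.16), with library-size scaling (0.21, adjusted p = 0.13) and with cells thinned to 2000 UMIs (0.35, adjusted p = 0.079). The genotype call under anti-CD40 was lost without control CD40 mouse 1 or 2 (0.47 and 0.56, adjusted p = 0.25 and 0.15), control CD40 lane 2 (0.41, 0.11), B2m-null CD40 pool 1 or 2 (0.54 and 0.48, 0.089 and 0.12) or control isotype pool 2 (0.51, 0.051), with thinned cells (0.56, 0.079) and at the finer clustering (0.43, 0.094).

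In monocytes Fcgr1 stood at 437, 541, 471, 511 and 638 CPM in control isotype and at 345 and 235 in control CD40. It stood at 322, 430 (429.8), 271, 376 and 325 CPM in B2m-null isotype and at 317, 298, 380 (379.8) and 368 in B2m-null CD40. Every control isotype mouse again lay above every mouse of the other groups. The change with anti-CD40 in control tumours was -0.82 (SE 0.18, edgeR adjusted p = 0.0061, 10.6% of monocyte genes called), lost without control CD40 mouse 2 (-0.54, adjusted p = 0.28). B2m-null against control under isotype gave -0.64 (SE 0.13, adjusted p = 0.0081, 4.30% called), lost without pool 1 of B2m-null isotype (-0.58, 0.12) or pool 1 or 2 of control isotype (-0.77 and -0.53, 0.096 and 0.054). The CD40 effects differed by 0.98 (SE 0.23, adjusted p = 0.0067, 16.1% called), lost without control CD40 mouse 2 (0.71, 0.11), and the change in B2m-null tumours alone was 0.17 (SE 0.14, adjusted p = 0.38). The mix of monocyte clusters differed between the control groups: the Chil3 and Vcan cluster, with Fcgr1 at 599.6 CPM in control isotype and 275 in control CD40, made up 40.55% and 14.9% of monocytes, and the Ace and Treml4 cluster, with 119 and 70.4 CPM, 3.73% and 22.1%. The part of this mix in the class-wide change was not tested.

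Under isotype, Fcgr4 had the largest fitted genotype change of the 5 genes in macrophages and in monocytes. In macrophages it stood at 506, 324, 353, 447 and 357 CPM in control isotype and at 184, 202, 172.5, 208 and 108 in B2m-null isotype, without overlap. B2m-null CD40 mice lay in between at 268, 257, 262 and 273 CPM, above all B2m-null isotype mice and below all control isotype mice, and the control CD40 mice stood at 321 and 494. The genotype change under isotype was -1.25 (SE 0.17, edgeR adjusted p = 0.0012), and anti-CD40 raised Fcgr4 in B2m-null tumours by 0.81 (SE 0.18, adjusted p = 0.0025). Both held under all 24 alternatives. In control tumours the change with anti-CD40 was 0.18 (SE 0.22, adjusted p = 0.59), and the difference between the CD40 effects was 0.63 (SE 0.29, adjusted p = 0.14), so a difference of effects was not shown in macrophages.

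In monocytes Fcgr4 stood at 291, 316, 284, 384 and 347 CPM in control isotype and at 152.5, 171, 152.2, 159.8 and 144 in B2m-null isotype, a change of -1.10 (SE 0.12, edgeR adjusted p = 4.7e-05). Anti-CD40 brought the B2m-null mice to 310.1, 313, 227 and 193 CPM, all above the isotype mice (0.92, SE 0.13, adjusted p = 1.4e-05). Both changes held under all 24 alternatives. The control CD40 mice stood at 374 and 412, and Fcgr4 under anti-CD40 was lower in B2m-null than in control monocytes (-0.50, SE 0.15, adjusted p = 0.038, 11.9% called). This call was lost without control CD40 mouse 1 or 2 (-0.56 and -0.43, adjusted p = 0.090 and 0.32), control CD40 lane 2 (-0.48, 0.074), B2m-null CD40 pool 2 (-0.28, 0.28) or control isotype pool 1 (-0.48, 0.058), with the stricter cell filter (-0.37, 0.17) and with thinned cells (-0.52, 0.093), and with the marker gate the value was 0.20 (0.67). The difference of the CD40 effects, 0.60 (SE 0.20, adjusted p = 0.044), was lost without either control CD40 mouse (0.55 and 0.67, 0.15 and 0.12), either control CD40 lane (0.57 and 0.62, 0.069 and 0.053), B2m-null CD40 pool 1 (0.31, 0.25), B2m-null isotype pool 1 (0.61, 0.10) or control isotype pool 2 (0.47, 0.12), and with library-size scaling (0.47, 0.13), limma-voom (0.57, 0.050) or thinned cells (0.65, 0.082). The gain with anti-CD40 in B2m-null monocytes went with a shift of clusters: the Ly6i- and Nos2-expressing cluster made up 65.7% of them, against 5.35% in B2m-null isotype, 14.7% in control isotype and 40.04% in control CD40.

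Fcgr3 differed between the pools of a group. Macrophages stood at 352, 372, 422, 469 and 437 CPM in control isotype, 289 and 336 in control CD40, 300, 225, 247, 381 and 402 in B2m-null isotype and 220 (219.6), 272, 481 and 488 in B2m-null CD40. Pool 1 averaged 382 CPM in control isotype, 258 in B2m-null isotype and 246 in B2m-null CD40, and pool 2 averaged 453, 391 and 485, so pool 1 lay lower in all 3 groups, as it did in monocytes (395, 241 and 294 against 447, 405 and 525). No comparison was called in macrophages in the fit used, where adjusted p lay between 0.15 and 0.63 (edgeR). With the replicate number as a block (last sections), Fcgr3 was called lower in B2m-null macrophages and monocytes under isotype. In monocytes, Fcgr3 stood at 267, 321, 529 and 520 CPM in B2m-null CD40 and at 255, 234, 236, 411 and 398 in B2m-null isotype, with overlap. The change of 0.57 (SE 0.21, edgeR adjusted p = 0.035) fell to 0.05 (0.90) without pool 2 of B2m-null CD40 and to 0.20 (0.58) without pool 1 of B2m-null isotype, to 0.38 (0.12) with library-size scaling, to 0.48 (0.084) with thinned cells and to 0.53 (0.051) with limma-voom. Within pool 1 the averages were 294 and 241 CPM and within pool 2 they were 525 and 405, but the labels do not say that pools of the same number belong together. The difference of CD40 effects in monocytes (1.07, SE 0.34, adjusted p = 0.035) was lost when any of 7 pools, lanes or mice was left out, with values from 0.54 to 1.25, and with thinned cells (1.03, 0.054). Control monocytes stood at 375, 367, 442.5, 451 and 442 CPM under isotype and 322 and 252 under anti-CD40 (-0.51, SE 0.27, adjusted p = 0.25).

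Fcer1g was lower in B2m-null tumours under isotype and rose there with anti-CD40. In macrophages it stood at 4141, 3656, 3654, 3579 and 3605 CPM in control isotype and 3052, 3101, 2612, 2786 and 2769 in B2m-null isotype, without overlap (-0.43, SE 0.10, edgeR adjusted p = 0.015). B2m-null CD40 mice stood at 3292, 3040, 3708 and 3646 CPM, 1 of them below the highest isotype mouse (0.47, SE 0.11, adjusted p = 0.0034). The control CD40 mice, at 3109 and 4196, lay on both sides of the control isotype mice (0.12, SE 0.13, adjusted p = 0.57). The genotype call was lost without pool 1 of B2m-null isotype (-0.43, 0.14) or of control isotype (-0.38, 0.24), and the CD40 call without pool 2 of B2m-null CD40 (0.31, 0.10).

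Monocytes repeated the pattern with less spread. They stood at 3648, 3609, 3751, 3603 and 3679 CPM in control isotype, 2941, 2999, 2808, 2950 and 2914 in B2m-null isotype, 3709, 3869, 3914 and 3837 in B2m-null CD40 and 3173 and 3646 in control CD40. B2m-null isotype lay below every mouse of the other groups. The genotype change under isotype was -0.37 (SE 0.07, edgeR adjusted p = 0.0040), lost without pool 1 of B2m-null isotype (-0.33, 0.085) or of control isotype (-0.35, 0.21). The CD40 change in B2m-null tumours was 0.57 (SE 0.07, adjusted p = 7.7e-06), which held under all 24 alternatives, and the difference of CD40 effects was 0.63 (SE 0.12, adjusted p = 0.0016). In NK cells Fcer1g stood at 1160, 1456, 1168, 1337 and 1304 CPM in B2m-null isotype and at 1867, 1802, 1808 and 1792 in B2m-null CD40, without overlap (0.68, SE 0.12, adjusted p = 0.00042, where 11.5% of NK genes were called). This NK call was lost with the pool as unit. Control NK cells stood at 1606, 1784, 1743, 1863 and 1782 CPM under isotype and 1863 and 1520 under anti-CD40. They lay above B2m-null isotype in every mouse, but that genotype change of -0.49 (SE 0.12, adjusted p = 0.079) did not pass.

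**Figure D3:**
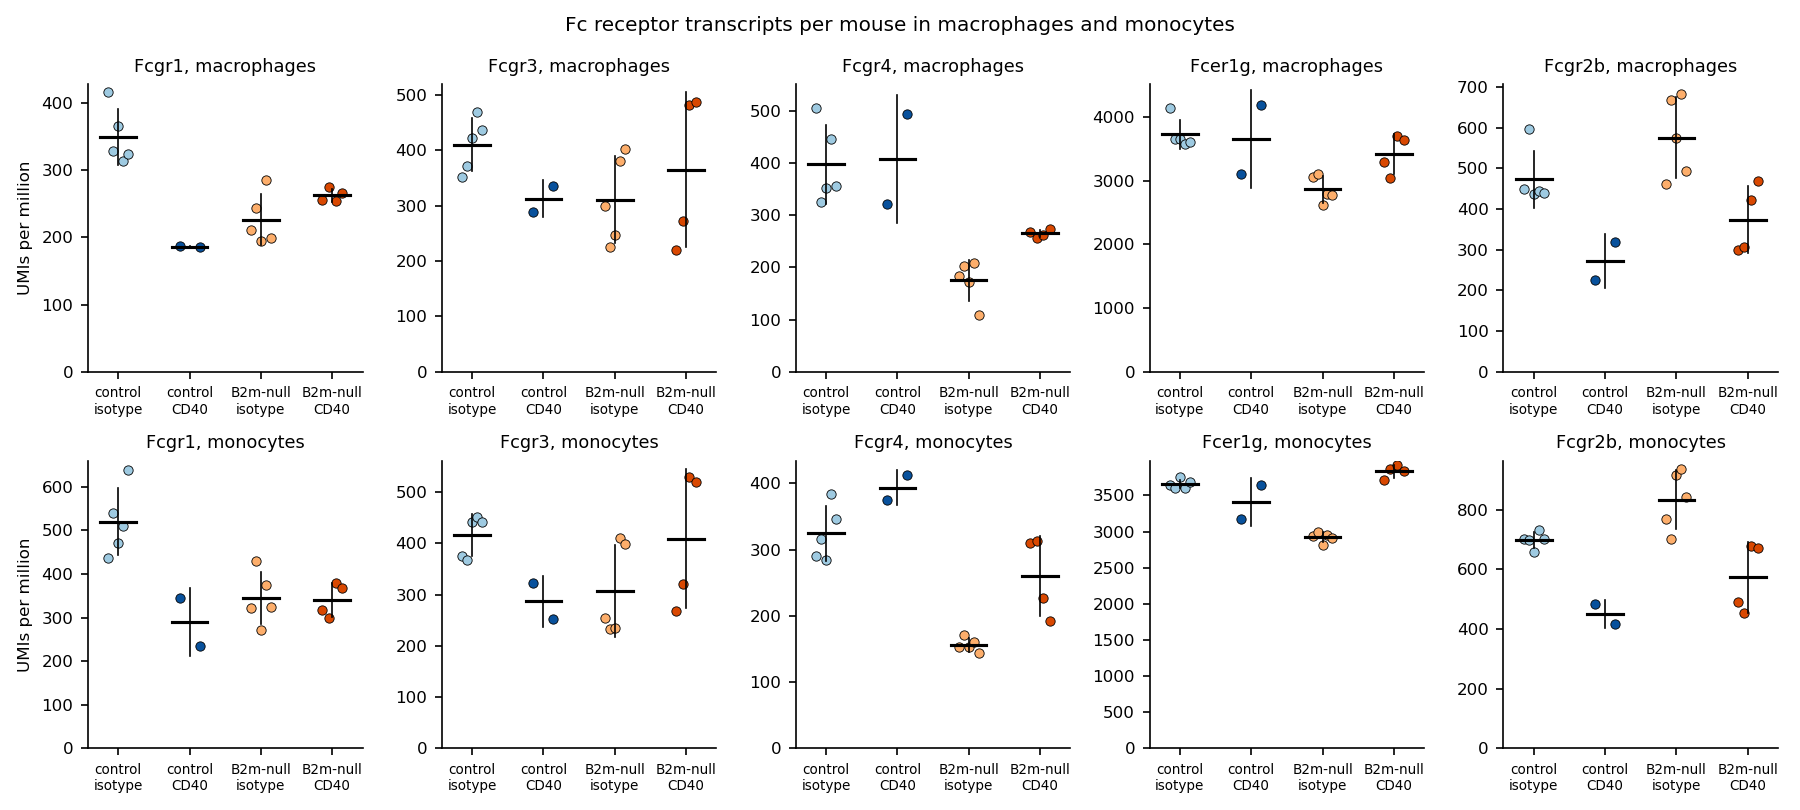
Level of each gene (UMIs per 1000000, that is CPM, from 0) in the 4 groups, in macrophages (upper row) and monocytes (lower row), with 1 point per mouse, a bar at the group mean and a line of 1 SD on each side. In macrophages all 5 control isotype mice lie above the B2m-null isotype mice for Fcgr1, Fcgr4 and Fcer1g, while for Fcgr2b both control CD40 mice lie below the control isotype mice.

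Fcgr2b, the inhibitory receptor, fell with anti-CD40 in control tumours, and its genotype change under isotype was not called in any class. In macrophages of control tumours it stood at 449, 598, 437, 444 and 439 CPM under isotype and at 226 and 320.2 under anti-CD40, without overlap (-0.64, SE 0.22, edgeR adjusted p = 0.041). In B2m-null tumours it stood at 461, 667, 575, 683 and 494 CPM under isotype and at 300.2, 308, 421 and 468 under anti-CD40, with 1 mouse in the range of the isotype mice. That change of -0.41 (SE 0.17, adjusted p = 0.074) did not pass, though with library-size scaling it was -0.62 (adjusted p = 0.0052). The 2 CD40 effects differed by 0.24 (SE 0.27, adjusted p = 0.59). The control call was lost without control CD40 mouse 1 (-0.37, 0.42) or control isotype pool 1 or 2 (-0.54 and -0.72, 0.19 and 0.058), and at the finer clustering (-0.46, 0.16). B2m-null against control under isotype gave 0.23 (SE 0.16, adjusted p = 0.37), with overlapping mice.

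In monocytes Fcgr2b stood at 703, 699.5, 657, 732 and 702 CPM in control isotype, 484 and 417 in control CD40, 769.5, 703, 917, 937 and 843 in B2m-null isotype and 490.2, 453, 679 and 671 in B2m-null CD40. The anti-CD40 mice lay below the isotype mice in control tumours (-0.60, SE 0.16, edgeR adjusted p = 0.023) and in B2m-null tumours (-0.36, SE 0.13, adjusted p = 0.031, where 37.4% of monocyte genes were called). The first call was lost without control CD40 mouse 2 (-0.48, 0.33) or control isotype pool 1 or 2 (-0.63 and -0.57, 0.11 and 0.063). The second was lost without B2m-null CD40 pool 1 (-0.10, 0.56), B2m-null isotype pool 2 (-0.24, 0.21) or control isotype pool 1 (-0.34, 0.075), with thinned cells (-0.35, 0.094) and with the marker gate (-0.25, 0.17). The genotype change under isotype was 0.22 (SE 0.12, adjusted p = 0.33).

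Among dendritic cells, calls were made in cDC2, where the control CD40 group rested on 77 cells of 2 mice. The B2m-null CD40 group there rested on 2 mice, both of pool 2, so each anti-CD40 group was 1 pool. Fcgr2b stood at 221, 275, 315, 362 and 274 CPM in control isotype, 98.9 and 82.6 in control CD40, 339, 355, 366, 371 and 439 in B2m-null isotype and 278 and 260.5 in the 2 B2m-null CD40 mice with at least 20 cells. It fell with anti-CD40 in control tumours (-1.70, SE 0.28, edgeR adjusted p = 0.00070, 3.12% of cDC2 genes called) and was then higher in B2m-null than in control tumours (1.73, SE 0.31, adjusted p = 0.0077, 1.40% called). Fcgr1 stood at 144, 132, 238, 149 and 152 CPM in control isotype and at 79.1 and 31.8 in control CD40 (-1.66, SE 0.40, adjusted p = 0.016). Fcer1g stood at 2249, 2377, 2778, 2306 and 2191 CPM in control isotype and at 1612 and 1335 in control CD40 (-0.71, SE 0.15, adjusted p = 0.0067). Macrophage transcripts moved with these values: the summed level of C1qa, C1qb, C1qc, Lyz2 and Apoe in cDC2 averaged 2526 CPM in control isotype (1587 to 4174), 882 in control CD40 (544 to 1220), 3272 in B2m-null isotype (1922 to 5137) and 2869 in B2m-null CD40 (1445 to 4292). Their part in the result was not tested beyond removing cells that held transcripts of another lineage. Without those cells the changes with anti-CD40 in control tumours were -1.45 for Fcgr2b (adjusted p = 0.0042), -0.67 for Fcer1g (0.012) and -1.41 for Fcgr1 (0.067), and the higher Fcgr2b in B2m-null tumours was no longer called (1.22, 0.068).

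All 3 of these control CD40 calls were lost without control CD40 mouse 2 (Fcgr2b -1.57, adjusted p = 0.10, Fcgr1 -1.05, 0.49, Fcer1g -0.59, 0.27) and at the finer clustering (-0.42, -0.42 and -0.24). The Fcgr1 call was also lost without control CD40 lane 2 (-1.14, 0.20), with thinned cells (-0.92, 0.51) and with limma-voom (-1.72, 0.061). The Fcer1g call was also lost without control isotype pool 1 (-0.58, 0.096) and with thinned cells (-0.50, 0.15). The higher Fcgr2b in B2m-null tumours under anti-CD40 was lost without control CD40 mouse 2 (1.62, 0.18), with thinned cells (1.61, 0.12) and at the finer clustering (0.33, 0.57). The CD40 effects in cDC2 differed between tumour genotypes by 1.96 for Fcgr1 (SE 0.49, edgeR adjusted p = 0.025), 1.38 for Fcgr2b (SE 0.34, adjusted p = 0.025) and 0.83 for Fcer1g (SE 0.20, adjusted p = 0.022), where 4.37% of genes were called. Each was lost without control CD40 mouse 2 (1.37, 1.27 and 0.73, adjusted p = 0.28, 0.20 and 0.15). Each was also lost when cells with transcripts of another lineage were removed (1.49, 0.84 and 0.69, adjusted p = 0.11, 0.21 and 0.053), with thinned cells (0.82, 1.39 and 0.70, 0.65, 0.17 and 0.12) and at the finer clustering (0.95, 0.05 and 0.46, 0.063, 0.95 and 0.12). Fcgr1 was lost as well without control CD40 lane 2 (1.44, 0.15) and with limma-voom (2.05, 0.057). Fcer1g was lost as well without control isotype pool 1 (0.71, 0.11), with library-size scaling (0.65, 0.056) and with the stricter cell filter (0.56, 0.13). Fcgr2b was lost as well without control CD40 mouse 1 (1.52, 0.079), control CD40 lane 2 (1.36, 0.076) or B2m-null isotype pool 1 (1.23, 0.068), with the stricter cell filter (1.25, 0.057) and with limma-voom (1.33, 0.074).

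Under isotype, Fcgr4 in cDC2 stood at 61.7, 52.0, 22.7, 41.0 and 63.2 CPM in B2m-null tumours and at 77.1, 52.6, 169, 124 and 111 in control tumours. The change was -1.09 (SE 0.26, edgeR adjusted p = 0.015, 2.91% of cDC2 genes called) with 1 control mouse inside the B2m-null range. The cDC2 mean over the isotype mice, 77.4 CPM, lay below the highest fibroblast-like value of 114, so this level is not read as expression. The part of free RNA in the change was not tested. Fcgr1 stood at 141, 91.1, 86.9, 100.5 and 89.8 CPM in B2m-null isotype, with 1 mouse in the control range (-0.67, SE 0.17, adjusted p = 0.029). The Fcgr4 call was lost without B2m-null isotype pool 1 (-1.02, 0.099) or control isotype pool 2 (-0.97, 0.12), and with thinned cells (-1.07, 0.11). The Fcgr1 call was lost without B2m-null isotype pool 1 or 2 (-0.72 and -0.60, 0.075 and 0.10) or control isotype pool 1 (-0.56, 0.27), with thinned cells (-0.37, 0.51) and with the marker gate (-0.64, 0.16). In NK cells Fcgr2b, at background level, gave -1.34 (SE 0.41, adjusted p = 0.045, 5.91% of NK genes called) with anti-CD40 in control and -1.47 (SE 0.38, adjusted p = 0.011) in B2m-null tumours. The macrophage transcripts in NK cells averaged 608 and 538 CPM under isotype and 294 and 333 under anti-CD40, moving the same way. The control call was lost in 12 of 21 alternatives, among them those without either control CD40 mouse (-1.14 and -1.62, adjusted p = 0.35 and 0.18), either control CD40 lane (-1.34 and -1.33, 0.17 and 0.13), control isotype pool 2 (-1.02, 0.26) or B2m-null isotype pool 2 (-1.34, 0.053), and the B2m-null call without B2m-null CD40 pool 2 (-1.51, 0.11) or B2m-null isotype pool 2 (-1.47, 0.17), with the marker gate (-0.66, 0.58), at the finer clustering (-0.74, 0.16) and with the stricter cell filter (-1.89, 0.057).

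The balance of activating to inhibitory receptors is described by the UMIs of Fcgr1, Fcgr3 and Fcgr4 together over those of Fcgr2b. Each UMI is 1 molecule tagged at its 3′ end, so no gene length enters, and the ratio is read across groups only and without a test. In macrophages it was 2.49 ± 0.45 (SD, n = 5) in control isotype, with mice at 2.83, 1.71, 2.61, 2.77 and 2.55. It was 3.35 ± 0.25 (n = 2) in control CD40, at 3.53 and 3.17, and both of these lay above every other mouse. It was 1.26 ± 0.22 (n = 5) in B2m-null isotype, at 1.51, 1.01, 1.07, 1.28 and 1.43, and all of these lay below every other mouse. It was 2.41 ± 0.18 (n = 4) in B2m-null CD40, at 2.47, 2.61, 2.37 and 2.19, within the range of control isotype. Monocytes held the same order of means, 1.80, 2.16, 0.978 and 1.79 in the same order of groups. In cDC2 the means were 1.39, 1.38, 0.699 and 1.07, with Fcgr4 in the sum although it is not read as expression there. The control CD40 mean in cDC2 rests on 16 over 10 and 15 over 13 UMIs in its 2 mice.

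**Figure D4:**
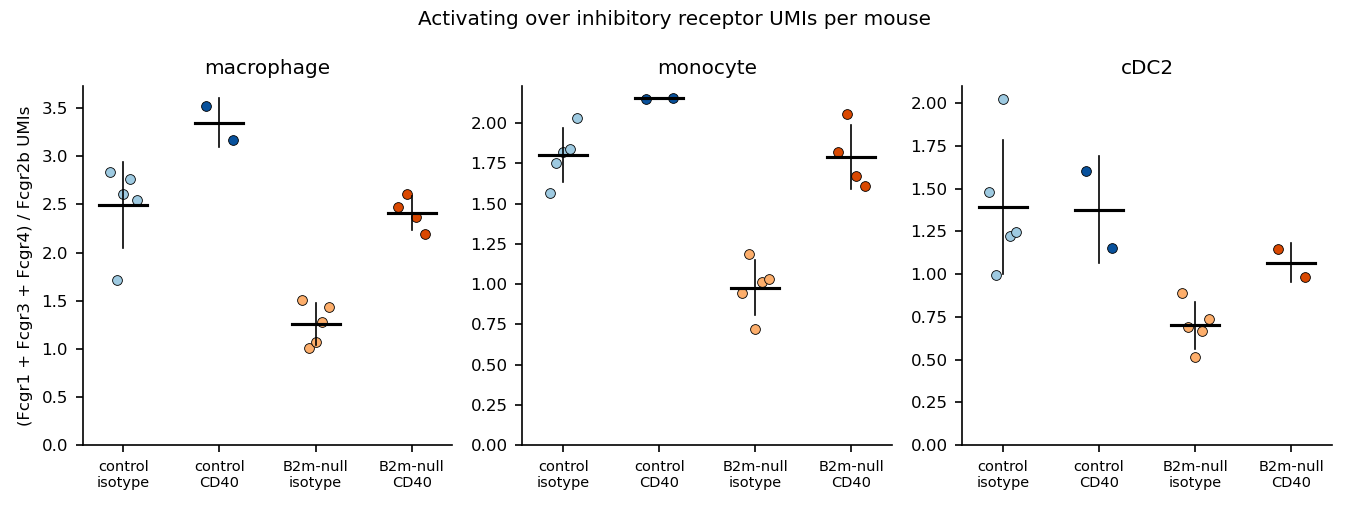
Ratio of activating (Fcgr1, Fcgr3 and Fcgr4) to inhibitory (Fcgr2b) UMIs in the 4 groups, in macrophages, monocytes and cDC2, with 1 point per mouse, a bar at the group mean and a line of 1 SD on each side. In macrophages the B2m-null isotype mice lie between 1.01 and 1.51, below all other mice, and the 2 control CD40 mice at 3.17 and 3.53 lie above all others.

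Group differences within a class can come with a different mix of its clusters, so the levels were read within clusters as well. A cluster led by H2-M2 and Gpnmb made up 43.7% of control CD40 macrophages, against 3.63% in control isotype, 1.19% in B2m-null isotype and 11.3% in B2m-null CD40. Within it Fcgr1 stood at 247 CPM in control isotype and 158 in control CD40, and Fcgr2b at 404 and 236. The cluster led by the interferon-induced genes Rsad2 and Ifit2 made up 12.8% of macrophages in control isotype and 2.37% in control CD40. It made up 4.69% in B2m-null isotype and 6.72% in B2m-null CD40. In this cluster Fcgr1 stood at 703 CPM in control isotype, 297 in control CD40, 665 in B2m-null isotype and 560 (559.7) in B2m-null CD40. These were the highest means among the 9 clusters plotted in all groups but control CD40, where the Ccl24 and Arg1 cluster (389) and the Ly6i and Nos2 cluster (301) stood higher. These last 2 clusters could not be named as a whole: by finer clustering the first held 4269 monocytes, 1399 macrophages and 449 unnamed cells and the second 3595, 225 and 686, and their values here are over all of these cells. In the Chil3- and Vcan-expressing monocytes Fcgr1 stood at 599.6 CPM in control isotype and 275 in control CD40. In the Mmp12-expressing macrophages it stood at 279 and 130, and in the Lyve1- and Retnla-expressing macrophages at 327 and 159. In the Stab1- and Vcam1-expressing macrophages it stood at 320.2 and 263, and in dividing macrophages at 262 and 245. Fcgr4 in the Stab1- and Vcam1-expressing macrophages was 551 CPM in control isotype, 759 in control CD40, 219.9 in B2m-null isotype and 311 in B2m-null CD40. Dividing macrophages held 361, 585, 153 and 227 CPM of Fcgr4 in the same order. Fcgr4 was also higher in control CD40 in the Mmp12-expressing macrophages (216 to 236) and in the Ccl24 and Arg1 cluster (285 to 317). It was lower in others: it went from 468 in control isotype to 370 (369.9) in control CD40 in the Rsad2 and Ifit2 cluster, from 516 to 450 (449.6) in the Ly6i and Nos2 cluster, from 297 to 150 in the Chil3- and Vcan-expressing monocytes, from 361 to 345 in the H2-M2 and Gpnmb cluster and from 342 (341.5) to 309 in the Lyve1- and Retnla-expressing macrophages. In B2m-null tumours Fcgr4 was higher under anti-CD40 in 8 of these 9 clusters, the exception being the Rsad2 and Ifit2 cluster, at 370 (369.8) under isotype and 311 (310.5) under anti-CD40. Fcgr2b was highest among macrophages in the Lyve1- and Retnla-expressing cluster, at 719, 375, 876 and 466 CPM in the same order, lower under anti-CD40 in both tumour genotypes there. These cluster means carry no test, and the part of the cluster mix in the class-wide changes was not tested. Median depth in macrophages was 4455 UMIs in control isotype, 2796 in control CD40, 5084 in B2m-null isotype and 5626 in B2m-null CD40. With every cell thinned to 2000 UMIs, the fall of Fcgr1 in control tumours (-0.89, adjusted p = 0.0021) and both Fcgr4 changes in macrophages (-1.21 and 0.82, 0.00032 and 0.0018) stayed called, while the rise of Fcgr1 in B2m-null tumours and its genotype difference under anti-CD40 did not (values above).

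**Figure D5:**
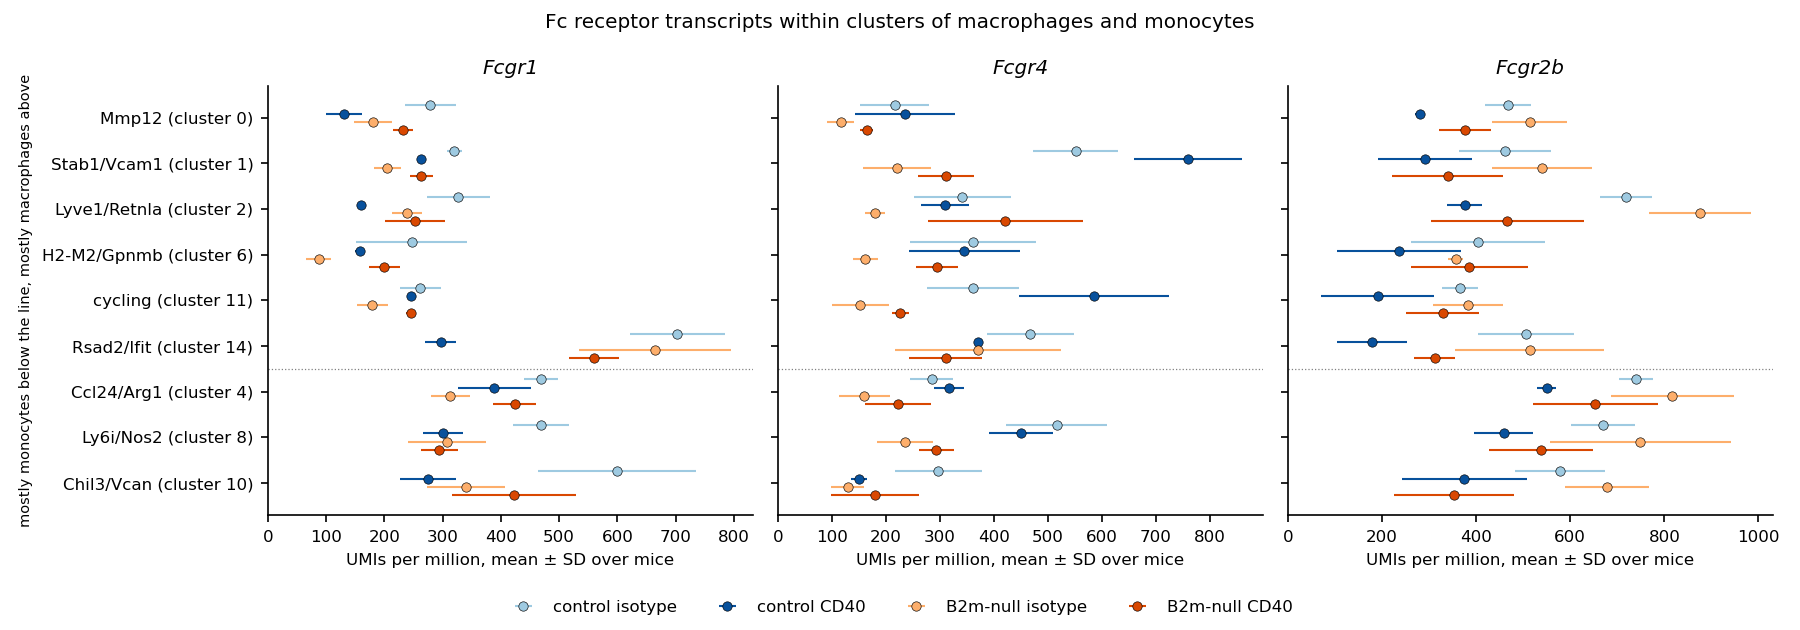
Level of Fcgr1, Fcgr4 and Fcgr2b (UMIs per 1000000, that is CPM, mean and SD over mice) in 6 clusters mostly of macrophages (above the dotted line) and 3 mostly of monocytes (below it), called by leading genes, in the 4 groups. In control isotype Fcgr1 is highest in the Rsad2 and Ifit cluster (703 CPM), and among macrophages in the same group Fcgr2b is highest in the Lyve1 and Retnla cluster (719 CPM).

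The other genes of the pathway were followed in macrophages, by lists drawn up from their known roles with earlier results of these data known. The counts are to be read beside the share of all macrophage genes called, which was 22.8% with anti-CD40 in control and 34.4% in B2m-null tumours, 9.78% between genotypes under isotype, 10.6% under anti-CD40 and 17.6% for the difference of effects. Of 3 further signalling adaptors (Tyrobp and Cd247, which carry ITAMs, and Hcst, which carries none and recruits a lipid kinase), 3 of 3 were higher with anti-CD40 in control tumours, Hcst by 2.01 (SE 0.15, edgeR adjusted p = 1.3e-07), Cd247 by 1.23 and Tyrobp by 0.46, beside a median of -0.01 over all genes. In B2m-null tumours 2 of 3 were higher, Tyrobp (0.53) and Hcst (0.42). Hcst and Cd247 are also T cell genes, and the summed level of Cd3e, Cd3d, Cd3g and Trac in macrophages averaged 11.7 CPM in control isotype (8.13 to 17.3), 31.2 in control CD40 (22.8 to 39.5), 8.87 in B2m-null isotype (5.67 to 10.6) and 23.2 in B2m-null CD40 (18.4 to 34.6). Hcst itself averaged 32.3, 119, 40.6 and 45.7 CPM in the same order and Cd247 0.845, 1.67, 0.739 and 0.625, and the part of T cell RNA in these changes was not tested. Hcst, the adaptor of activating receptors such as NKG2D, was lower in B2m-null than in control macrophages under anti-CD40 (-1.36, adjusted p = 0.00015). Among receptors that pair with Fcer1g, 3 of 6 tested were higher with anti-CD40 in control tumours (22.8% of all genes called) and 4 of 6 in B2m-null tumours (34.4%), where 1 fell. Clec4e, the C-type lectin Mincle, rose by 0.96 and 1.67, and Clec4d by 0.81 and Pira2 by 0.49 in control tumours. In B2m-null tumours Pira2 rose by 0.81 and Klrb1c, known as an NK receptor, fell by 1.82. Pira2 was lower in B2m-null tumours under isotype (-0.59), and Clec4n, the lectin Dectin-2, was higher there under anti-CD40 (1.00). The 4 NK transcripts summed to 0.949 to 3.75 CPM on average in macrophages, the lowest under anti-CD40, and their part in the Klrb1c change was not tested.

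Of the kinases and adaptors below the activating receptors, 3 of 11 were higher with anti-CD40 in control tumours, a share near the 22.8% of all genes called: the adaptors Lat2 (0.66) and Card9 (0.61) and the kinase Syk (0.33). In B2m-null tumours 5 of 11 were higher and 1 lower, among them the Src-family kinase Fgr (0.62) and the exchange factor Vav1 (0.43). Under isotype 3 of 11 were lower in B2m-null tumours, among them Plcg2 (-0.30) and Lyn (-0.23). The difference of CD40 effects was called for 3 of 11, among them Plcg2 (0.56) and Vav1 (0.38), and under anti-CD40 Syk was lower in B2m-null tumours (-0.29). Of 8 genes of inhibitory signalling, 1 was higher and 1 lower with anti-CD40 in control tumours, again near the 22.8% of all genes, the inhibitory receptor Pirb (0.52) and the adaptor Dok2 (-0.47). In B2m-null tumours 4 were higher and 1 lower, led by the phosphatase Ptpn6 (0.74), Dok3 (0.58) and Pirb (0.43). Under isotype Ptpn6 (-0.71) and Dok1 (-0.32) were lower in B2m-null tumours, and the CD40 effects differed for Ptpn6 (0.74).

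Of 8 genes of the phagocyte oxidase and the integrins that serve phagocytosis, 3 were higher with anti-CD40 in control tumours (22.8% of all genes called), the oxidase subunits Cybb (1.02) and Cyba (0.69) and the integrin chain Itgb2 (0.38). In B2m-null tumours 5 were higher (34.4% called), led by Ncf4 (0.96), Cyba (0.88) and Itgb2 (0.72), and under isotype 5 were lower in B2m-null tumours (9.78% called), led by Cyba (-0.57), Rac2 (-0.55) and Ncf4 (-0.50). Under anti-CD40, Cybb was lower in B2m-null than in control tumours (-0.73) and Ncf4 higher (0.55). The CD40 effects differed for Ncf4 (1.06) and Rac2 (0.84). The list of 8 interferon-gamma response genes had 7 lower in B2m-null tumours under isotype (median -1.33 beside 0.01 over all genes), led by Socs1 (-1.89), Cxcl9 (-1.75) and Irf1 (-1.48). With anti-CD40 in B2m-null tumours 8 of 8 were higher (median 1.26), led by Cxcl9 (2.00), Socs1 (1.76) and Gbp2 (1.46). In control tumours 0 of 8 passed, with a median of 0.54, and 0 of 8 passed for the difference of effects (median 0.60). Whether this list and the receptor genes share a cause was not tested.

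Other Fc receptors were mostly too low to test in macrophages, 5 of 12 passing the filter. Fcrls, a secreted scavenger-like relative of the Fc receptors, fell with anti-CD40 by 3.85 in control and by 2.13 in B2m-null tumours (edgeR adjusted p = 0.00052 and 0.00066) and was higher in B2m-null tumours under isotype (1.53) and under anti-CD40 (3.25). In B2m-null tumours anti-CD40 also lowered Fcrl1, known as a B cell receptor (-1.66), and Fcgrt, the neonatal receptor that recycles IgG (-1.10).

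The genes whose pattern over classes and groups was most like that of a member were found by Pearson's r of log2(CPM + 1) over 34 class-by-group means, among 11261 genes, as a description. The points share libraries, and most of the spread is that between myeloid and lymphoid classes. Fcgr1 was nearest to Csf1r (r = 0.967), the receptor of a macrophage growth factor, then Ifi204, Clec4a2, Clec4a3 and Slc15a3 (0.951). Fcgr3 was nearest to Amdhd2 (0.942), Cd93, Cd300ld, Tgm2 and C3ar1 (0.921), and Fcgr4 to Bri3 (0.953), Nampt, Pla2g7, Cstb and Atp6v0c (0.930). Fcer1g was nearest to Tyrobp (0.930), the other common ITAM adaptor of these cells, then Metrnl, Ggh, Itgam and Map7d1 (0.866). Fcgr2b was nearest to Ms4a6d (0.939), Fos, Pid1, Slc7a8 and Fcgr1 (0.901). Between members r ran from 0.498, for Fcer1g and Fcgr2b, to 0.901, for Fcgr1 and Fcgr2b.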

How the data were processed

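The deposited files hold UMI counts per gene and cell barcode, made by the authors with Cell Ranger 3.0.0 on mm10 after bcl2fastq 2.20.0.422, per the submitters' processing notes, with hashtag counts in the last rows. Of 116552 barcodes, 93495 were kept after filters of at least 200 genes, at most 10% mitochondrial UMIs and removal of 7045 hashtag doublets (6.04%). Of these, 78682 were assigned to a mouse by hashtag, in lanes with 2 hashtags at a posterior of 0.9. Pool 1 of control isotype and of B2m-null isotype held 3 hashtags. There a cell went to the hashtag farthest above its background, by a margin of at least 1 SD. Cells were clustered on 2000 variable genes, 40 principal components and 20 neighbours with leidenalg 0.10.2 at resolution 1 (scanpy 1.11.5), giving 30 clusters. Clusters were named from marker lists. Of 6 clusters left unnamed, 4 took the names of their finer clusters at resolution 2 where those had one. After this, 9.29% of cells stayed unnamed. All B cells, and the monocytes of the Ccl24 and Arg1 cluster and of the Ly6i and Nos2 cluster, were named this way. For them the alternative of resolution 2 is partly the same naming. Raw counts were summed per mouse and class (at least 20 cells) and tested with edgeR 4.0.16 in R 4.3.3 (quasi-likelihood, TMM scaling, filterByExpr, Benjamini-Hochberg adjustment over all genes of a class), all 4 groups in 1 fit. All adjusted p values of changes between groups are from edgeR, and the mice are the replicates. The order of classes was tested by exact sign permutation within mice. The procedure was tested on simulated data.

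The members, marker lists and pathway lists were chosen with earlier results of these data known. The 5 members are named in every comparison, and of each pathway list up to 3 called genes with the largest log2 change per comparison in macrophages, except 1 gene that is not reported here. For likeness, the 5 genes with the highest r among genes reaching 10 CPM in some class and group are named. Alternatives were DESeq2 1.42.0, limma 3.58.1, RLE and library-size scaling, no filter on low counts, a stricter cell filter (500 genes, 5% mitochondrial), at least 50 cells and thinning to 2000 UMIs. Further ones were clustering resolution 2, a marker gate and removal of the top 5% of Scrublet scores or of cells with transcripts of another lineage. The last were the pool as unit, a replicate block, and each pool, lane or control CD40 mouse left out. Monocytes joined with macrophages and library-size scaling were added after the data were seen. Free RNA was not removed.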

Additional observations from a re-analysis of the deposited data

Results flagged for a closer look

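In 7 of 95 groups of 4 or 5 mice examined, the highest or lowest mouse stood apart from the others of its group by Dixon's criterion, which chance alone meets in about 1 in 20 groups. All 7 values came from pool 1 of an isotype group, and some mice gave more than 1 of them. Those pools held 3 hashtags, and their cells were assigned by the margin rule (above). The part of that rule in these values was not tested. In cDC2, Fcgr1 was 141.1 CPM in 1 B2m-null isotype mouse (others 86.87 to 100.5) and 238.1 in 1 control isotype mouse (others 132.3 to 151.9). In mature DC, Fcgr4 was 145.8 CPM in 1 B2m-null isotype mouse (others 17.24 to 50.92). Fcgr2b there was 226.5 CPM in 1 B2m-null isotype mouse (others 137.1 to 162.9) and 75.86 in 1 control isotype mouse, the lowest (others 140.9 to 155.5). In macrophages of control isotype, Fcer1g was 4141 CPM in 1 mouse (others 3579 to 3656) and Fcgr2b 597.8 in another (others 437.2 to 449.4).

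The effect of anti-CD40 differed between the tumour genotypes, by the edgeR test of the difference itself, for 8 combinations of gene and class. The effect in B2m-null minus that in control tumours was 1.19 (log2) for Fcgr1 in macrophages. In monocytes it was 0.98 for Fcgr1, 1.07 for Fcgr3, 0.60 for Fcgr4 and 0.63 for Fcer1g. In cDC2 it was 1.96 for Fcgr1, 1.38 for Fcgr2b and 0.83 for Fcer1g. The control CD40 group of each rests on 2 mice of 1 pool. In cDC2 the B2m-null CD40 group also rests on 2 mice of 1 pool, pool 2.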

How the results depend on the processing

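The 51 calls of the members, including those in joined classes, were refitted in 1169 alternative fits, of which 951 kept the call, 217 lost it and 1 reversed in direction. Fcgr4 in monocytes, B2m-null against control under CD40, turned from -0.50 to 0.20 with the marker gate. The cause was not tested. The alternatives also gained 107 calls that the main analysis did not make.

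For anti-CD40 in control tumours, 8 member tests were called in the main analysis. The count was 5 with at least 50 cells per mouse, 5 with thinned cells, 5 at resolution 2 and 4 with the marker gate. For B2m-null against control under isotype (8) it was 5 with the pool as unit and 13 with no filter on low counts. Under CD40 (3) it was 0 thinned, 1 at resolution 2, 5 with the marker gate and 6 with no filter. For the difference of CD40 effects (8) it was 5 with at least 50 cells, 3 thinned, 5 with cells of another lineage's transcripts removed, 5 at resolution 2 and 5 with the marker gate. With 1 pool, lane or mouse left out, the counts ran from 2 to 8 for anti-CD40 in control tumours, 6 to 9 in B2m-null tumours, 3 to 11 for genotype under isotype, 0 to 6 under CD40 and 3 to 10 for the difference. Neighbouring classes that differ (5 of 40 pairs) numbered 3 of 14 with the stricter cell filter, 13 of 40 with the marker gate, 8 of 40 at resolution 2, 1 of 22 thinned, 3 of 32 with at least 50 cells and 0 of 40 with any isotype pool left out.

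With the replicate number as a block, 12 calls were made for genotype under isotype and 10 for anti-CD40 in B2m-null tumours, against 8 and 9. The added calls were Fcgr3 in macrophages (-0.48, adjusted p = 0.032) and monocytes (-0.51, 0.017), Fcgr4 in cDC1 (-1.18, 0.034) and Fcer1g in NK cells (-0.48, 0.010) under isotype, and Fcgr2b in macrophages (-0.44, 0.042) with anti-CD40 in B2m-null tumours (edgeR). Only 2 numbers are shared and the labels give them no meaning, so the pools are taken to share a number only. Deviations of same-numbered pools correlated at 0.108, 0.172 and 0.313 in macrophages, at 0.010, -0.033 and 0.258 in monocytes and at 0.058, 0.020 and 0.133 in NK cells. Control CD40 has 1 pool and could not enter the block.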

Other observations

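A small cluster led by Mmp9, Ctsk and Acp5, genes known from osteoclasts, kept no name and held 122 cells in B2m-null CD40 and 28 in control CD40, against 1 in control isotype and 3 in B2m-null isotype. Only 1 mouse, of B2m-null CD40, had at least 20 of them, and there Fcer1g stood at 1279 CPM, Fcgr2b at 106.8, Fcgr4 at 64.96, Fcgr1 at 35.23 and Fcgr3 at 33.03.

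The monocyte cluster led by Adgre4, Ace and Treml4, genes known from patrolling monocytes, held Fcgr4 at 445 ± 59.6 CPM (SD, n = 4 mice) and Fcgr1 at 119 ± 90.9 in control isotype. In control CD40 the values were 449 ± 68.9 and 70.4 ± 8.8 (n = 2). Fcgr4 stood at 422 CPM in B2m-null isotype and at 1090 in B2m-null CD40, and Fcgr1 at 102.6 and 122.7, each from 1 mouse that had 20 or more of these cells. These values carry no test.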
